A study of Mus musculus with 12 samples.

Results

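The genes described here are 10 feedback genes of the ERK pathway, measured in C2C12 mouse myotubes kept with 4% STEM or with 4% horse serum. They are defined by symbol, with earlier results of these data known, as ERK-induced phosphatases (Dusp4, Dusp5, Dusp6), Sprouty genes (Spry1, Spry2, Spry4), Spred genes (Spred1, Spred2) and PEA3 group transcription factors (Etv4, Etv5), and all 10 were found among the 55487 genes of the count table. C2C12 is an established line of mouse myoblasts that fuse into myotubes in low serum. STEM is a preparation of secreted factors, without cells, from cultures in which human embryonic stem cells had begun to differentiate. Both groups were differentiated for 5 days in medium with 2% horse serum. The medium was then replaced for 24 hours by one with 4% horse serum in 6 libraries (numbered 1 to 6) or with 4% STEM in 6 libraries (7 to 12), with penicillin and streptomycin in both. Since STEM took the place of horse serum, the addition of the one and the removal of the other cannot be told apart. RNA was collected by the well, and no source used here ties each library to a well or to a separate passage of the line, so the p-values measure the spread between these libraries, which may be technical.

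ERK is the last kinase of the RAS, RAF, MEK and ERK cascade, through which receptors of growth factors such as FGF and HGF act on transcription. Active ERK induces its own inhibitors. The DUSP phosphatases remove phosphate from MAP kinases, the Sprouty and Spred proteins restrain the steps at RAS and RAF, and Etv4 and Etv5 encode ETS transcription factors whose expression follows FGF signalling. For this reason the transcripts of these genes are widely used as a record of ERK activity. In muscle cells, FGF and ERK signalling is known for keeping myoblasts in cycle and delaying their differentiation, and Spry1 is known for its part in the quiescence of satellite cells.

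The 12 libraries held between 13285472 and 24536264 counts. Depletion of ribosomal RNA preceded the library preparation, and a gene's values are given as CPM, its counts relative to the normalized library total. The labelled cell type was matched by its markers, as all 12 myotube markers examined were expressed and tested. Of 12 markers of leukocytes, endothelium, epithelium and Schwann cells, 6 did not exceed 3 counts in any library and 2 of these were at 0 throughout, and the summed level of the 12 was between 3.48 and 6.65 CPM with horse serum and between 5.33 and 7.5 CPM with STEM. Csf1r, the gene of a macrophage receptor, was too low for the test, at 0.0512 to 0.544 CPM in horse serum libraries and 0.404 to 1.23 CPM in STEM libraries, and it was higher with STEM in the fit without a filter on low counts (log2 fold change 1.7, adjusted p = 0.000729 in edgeR). Its part in the results was not tested. Horse serum library 6 stood apart. It lay at -53.3 on principal component 2 of the expression values (19.8% of the variance), where the other 11 libraries lay between 0.216 and 11.8. On principal component 1 (44.2% of the variance) it lay at 11.2, nearer to the STEM libraries (15.5 to 28.6) than to the other horse serum libraries (-35.5 to -24.6). It was also the lowest horse serum library for 12 of the 12 myotube markers. The results were therefore also examined without it.

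Promoter sequences were available for 7 of the 10 genes, in 8 windows from 250 bases before to 50 bases after a transcription start (RefSeq, build GRCm38.p6). Those of 2 pairs of related genes are shown, because Spry1 and Dusp6 were lower with STEM while no change was detected for Spry2 and Dusp5, as given further on. Capitals mark matches, on either strand, to a motif of ETS factors (CCGGAA), of the repressor CIC (TGAATGAA or TGAATGGA), of AP-1 (TGANTCA) or of CREB (TGACGTCA), or to the CArG box, at which SRF binds.
Spry1 (chr3:37639697-37639996, plus strand): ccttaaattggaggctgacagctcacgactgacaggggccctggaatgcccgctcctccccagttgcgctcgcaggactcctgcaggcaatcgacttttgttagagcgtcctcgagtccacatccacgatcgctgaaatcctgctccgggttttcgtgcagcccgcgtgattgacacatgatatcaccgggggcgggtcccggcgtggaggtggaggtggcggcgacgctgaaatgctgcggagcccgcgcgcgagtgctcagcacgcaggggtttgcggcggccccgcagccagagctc
Spry2 (chr14:105896770-105897069, minus strand): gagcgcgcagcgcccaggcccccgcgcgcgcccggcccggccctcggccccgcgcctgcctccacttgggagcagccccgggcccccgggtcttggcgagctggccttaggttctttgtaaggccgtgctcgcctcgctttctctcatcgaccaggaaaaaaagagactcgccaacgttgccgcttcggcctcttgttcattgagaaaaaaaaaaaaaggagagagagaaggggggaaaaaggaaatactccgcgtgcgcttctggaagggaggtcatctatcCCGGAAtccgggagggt
Dusp6 (chr10:99262981-99263280, plus strand): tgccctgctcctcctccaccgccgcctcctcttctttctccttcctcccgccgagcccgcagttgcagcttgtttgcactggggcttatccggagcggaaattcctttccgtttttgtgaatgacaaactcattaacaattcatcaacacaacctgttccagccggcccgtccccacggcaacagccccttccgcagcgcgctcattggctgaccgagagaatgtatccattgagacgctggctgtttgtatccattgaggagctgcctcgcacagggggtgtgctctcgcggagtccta
Dusp5 (chr19:53528895-53529194, plus strand): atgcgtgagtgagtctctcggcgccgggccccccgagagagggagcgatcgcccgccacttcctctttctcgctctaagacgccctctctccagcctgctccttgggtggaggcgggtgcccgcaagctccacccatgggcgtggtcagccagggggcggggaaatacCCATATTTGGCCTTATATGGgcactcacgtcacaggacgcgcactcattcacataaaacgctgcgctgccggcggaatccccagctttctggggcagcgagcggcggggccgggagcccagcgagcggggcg

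The window of Spry2 held 1 ETS match, which began 33 bases past the start. The window of Dusp5 held 2 CArG boxes next to each other, which began 82 and 72 bases before the start. No motif overlapped another. Neither Spry1 nor Dusp6 had a match in these windows, nor did those of Spred1, Spred2 and Etv5. Of all 32851 promoter windows, 14.9% held the ETS motif, 1.3% and 1.21% the 2 CIC motifs, 7.81% the AP-1 motif, 1.79% the CREB motif and 1.63% a CArG box. A match describes the letters of a window only, and a window without one does not tell whether a factor binds there or elsewhere.

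The first question was whether the feedback genes differed between STEM and horse serum. With STEM, 4 of the 10 genes were lower, namely Spry1, Dusp4, Etv4 and Dusp6, and 0 were higher. The log2 fold changes of the 4 genes lay between -0.92 and -0.42, and each kept its call when any 1 library was left out. No change was detected for Dusp5, Spry2, Spry4, Spred1, Spred2 and Etv5. Over all 14175 genes tested, 36.4% passed the adjusted threshold of 0.05 (edgeR's quasi-likelihood test, Benjamini-Hochberg adjustment), 17.4% lower and 18.9% higher with STEM, so that 4 lower genes of 10 stand beside a background in which differences were common. The median log2 fold change of the 10 genes was -0.2 against 0.012 for all genes tested. With 1 library left out it ranged from -0.29 (without STEM library 11) to -0.12 (without horse serum library 2). With all libraries the fitted value was below 0 for all 10, although that of Dusp5 was -0.00094 and turned positive under several alternatives. At an unadjusted p-value below 0.05 the count was also 4 lower and 0 higher, and it was 4 and 0 with DESeq2 and with limma-voom.

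**Figure D1:**
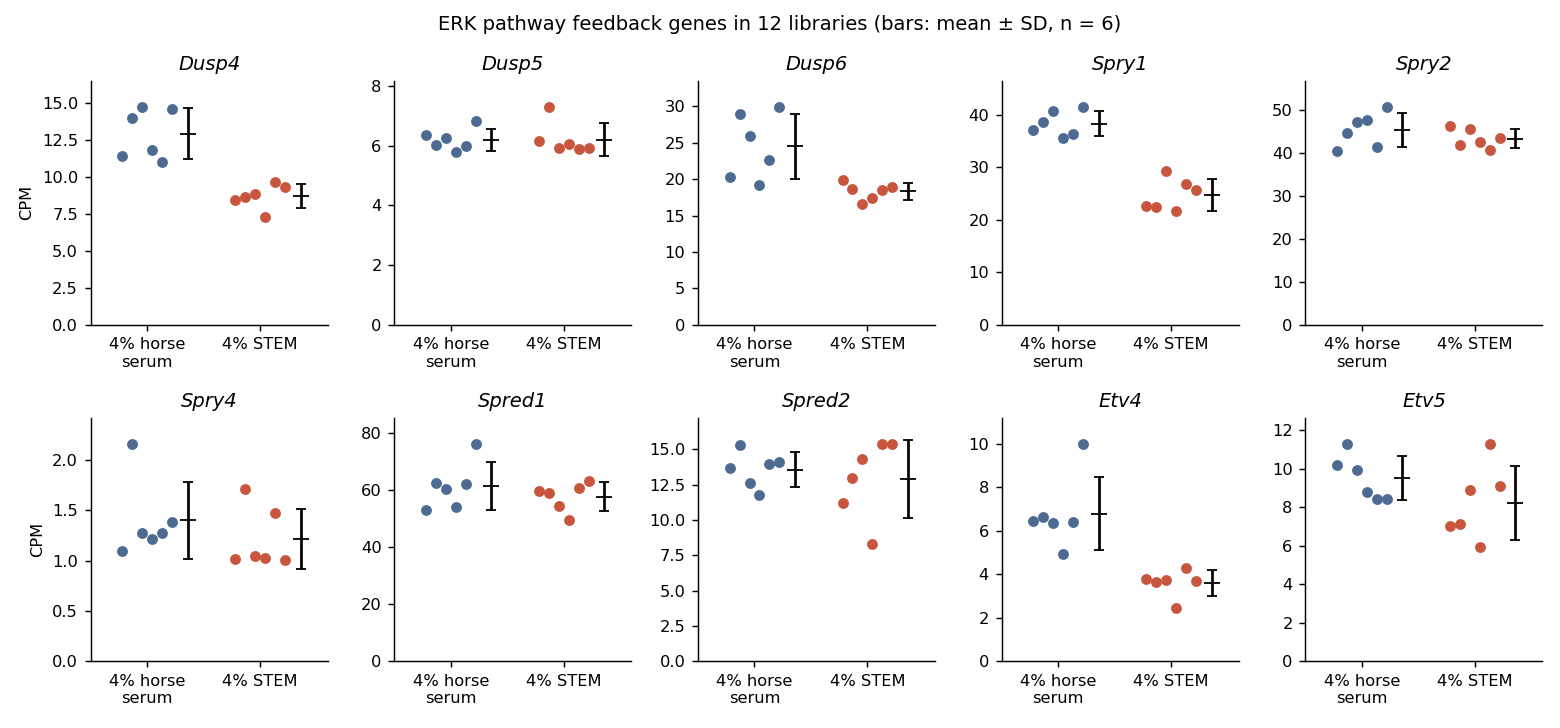
Expression of the 10 feedback genes in every library, in CPM on axes that start at 0. Each point is a library, and the bars give the mean and SD of 6. For Dusp4, Spry1 and Etv4 every STEM library lies below every horse serum library, while for the other genes the groups overlap.

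Among the phosphatases, Dusp4 encodes a nuclear enzyme that acts on ERK and on other MAP kinases. The gene (ENSMUSG00000031530, chromosome 8, 34807297 to 34819894, GRCm38, plus strand) was at 11, 12.9 and 14.7 CPM in the lowest, median and highest horse serum library and at 7.29, 8.74 and 9.61 CPM with STEM. The groups did not overlap, and the highest STEM value was that of library 11. Horse serum libraries averaged 12.9 ± 1.68 CPM and STEM libraries 8.68 ± 0.808 CPM (SD, n = 6), and the fitted log2 fold change was -0.57 ± 0.097 (SE, adjusted p = 0.000347 in edgeR). Dusp6, which encodes a cytoplasmic phosphatase specific to ERK and is often taken as the most direct record of its activity, lies on chromosome 10 (ENSMUSG00000019960, 99263231 to 99267489, plus strand). It was at 19.2, 24.3 and 29.9 CPM with horse serum and at 16.6, 18.6 and 19.9 CPM with STEM, again as lowest, median and highest. Here the groups overlapped, since STEM library 7 exceeded horse serum library 4, and 5 of 6 STEM libraries were below every horse serum library. The spread was unequal, with an SD of 4.46 CPM around the horse serum mean of 24.5 and of 1.17 CPM around the STEM mean of 18.3. The log2 fold change of Dusp6 was -0.42 ± 0.1 (SE, adjusted p = 0.00575 in edgeR), and without horse serum library 6, which had its highest value, it was -0.34 (adjusted p = 0.00407).

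Dusp5, whose nuclear product is also specific to ERK, did not follow the other phosphatases. The gene (ENSMUSG00000034765, chromosome 19, 53529109 to 53542431, plus strand) had medians of 6.15 CPM with horse serum (lowest 5.79, highest 6.82) and 6.00 CPM with STEM (lowest 5.88, highest 7.30). Both means were 6.21 CPM. The 95% interval of its log2 fold change ran from -0.19 to 0.18 (adjusted p = 0.995), which leaves out the size found for Dusp4 and Dusp6. An antisense gene, AC137853.2, shares 547 of the 2473 exon bases of Dusp5, and since the strand setting of the counting is not given, some reads could belong to either. AC137853.2 had at most 8 counts in a library against at least 78 for Dusp5, which does not tell how reads from the shared bases were counted.

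Spry1 had the lowest p-value of the 10 genes. It encodes a Sprouty protein, an inhibitor of signalling from receptor tyrosine kinases (ENSMUSG00000037211, chromosome 3, 37639947 to 37644598, plus strand). The lowest, median and highest values were 35.6, 37.9 and 41.5 CPM with horse serum and 21.6, 24.1 and 29.3 CPM with STEM. The groups were far apart, since the gap between the highest STEM library (9) and the lowest horse serum library (4) was wider than the whole horse serum range. From means of 38.3 ± 2.38 and 24.7 ± 3.04 CPM (SD, n = 6), the log2 fold change was -0.63 ± 0.077 (SE, adjusted p = 2.27e-05 in edgeR). The gene Gm42922 on the opposite strand shares 710 of 2906 exon bases with Spry1 and had 1 to 17 counts per library, against 335 to 810 for Spry1. Here too the counts do not tell how reads from the shared bases were assigned.

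Spry2, a close relative with the same inhibitory role (ENSMUSG00000022114, chromosome 14, 105891947 to 105896819, minus strand), was at 40.4, 45.9 and 50.7 CPM with horse serum and 40.6, 43.0 and 46.2 CPM with STEM. The STEM values lay inside the horse serum range, and the 95% interval of the log2 fold change was -0.2 to 0.067 (adjusted p = 0.441 in edgeR). Spry4 (ENSMUSG00000024427, chromosome 18, 38586247 to 38601415, minus strand) was the least expressed of the 10, with 15 to 29 counts per library. Its medians were 1.27 CPM with horse serum (1.10 to 2.16) and 1.04 CPM with STEM (1.01 to 1.71). The 95% interval of its log2 fold change was wide, from -0.64 to 0.25 (adjusted p = 0.494 in edgeR), and does not leave out a fall of the size found for Spry1. The genes Gm27369 and Gm27804 lie on the opposite strand of Spry4, share no exon base with it and had 0 counts.

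The Spred proteins bind the RAS inhibitor neurofibromin and bring it to the membrane. Spred1 (ENSMUSG00000027351, chromosome 2, 117121374 to 117182279, plus strand) was at 53.2, 61.3 and 76.3 CPM with horse serum and 49.5, 59.3 and 63.4 CPM with STEM. The highest value was that of horse serum library 6, and without that library the log2 fold change went from -0.09 (95% interval -0.27 to 0.088, adjusted p = 0.425) to -0.017. Spred2 (ENSMUSG00000045671, chromosome 11, 19924375 to 20024026, plus strand) had a median of 13.9 CPM with horse serum (11.8 to 15.3) and 13.6 CPM with STEM (8.32 to 15.4). The lowest value of Spred2, that of STEM library 10, lay well below the other 11 libraries, and the interval of the log2 fold change was -0.35 to 0.2 (adjusted p = 0.685 in edgeR).

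Etv4 showed the largest fall of the 10 genes. It encodes an ETS factor of the PEA3 group (ENSMUSG00000017724, chromosome 11, 101769742 to 101785371, minus strand). The lowest, median and highest values were 4.95, 6.42 and 10 CPM with horse serum and 2.45, 3.73 and 4.28 CPM with STEM, with no overlap. Horse serum library 6 had the 10 CPM, and the other 5 libraries did not exceed 6.64 CPM. The means were 6.80 ± 1.70 and 3.61 ± 0.610 CPM (SD, n = 6), and the log2 fold change was -0.92 ± 0.16 (SE, adjusted p = 0.00055 in edgeR), or -0.76 without library 6 (adjusted p = 7.19e-05). Its counts were between 38 and 196 per library. The related gene Etv5 (ENSMUSG00000013089, chromosome 16, 22381309 to 22439719, minus strand) was at 8.46, 9.38 and 11.3 CPM with horse serum and at 5.94, 8 and 11.3 CPM with STEM. STEM library 11 was as high as any horse serum library while 3 STEM libraries were below all of them, and the log2 fold change of -0.21 (95% interval -0.5 to 0.087) did not pass the test (adjusted p = 0.259 in edgeR).

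As a second view, the mean log2 CPM of each gene was compared between the groups by an exact permutation test (two-sided). The smallest p that 6 libraries against 6 allow, 0.00216, was reached by Dusp4, Spry1 and Etv4, that is by 3 of the 10 genes, and every STEM library was below every horse serum library for 8.52% of all genes tested. For Dusp6 the exact p was 0.00433, and for the other 6 genes it lay between 0.156 and 0.968. RNA was taken from whole cultures, so a lower value can come from fewer cells that express a gene or from less RNA per cell, which cannot be told apart. Cultures of myotubes keep mononucleated cells. Beside 17.4% of all genes tested, 9 of 10 proliferation markers were also lower with STEM, with a median log2 fold change of -0.48. This count was 6 with scaling by total counts and also without horse serum library 1, STEM library 9 or STEM library 12, and 8 without horse serum library 6. Their mean log2 CPM was between 6.01 and 6.73 with horse serum, highest in library 6, and between 5.62 and 5.92 with STEM. Top2a (-0.65, adjusted p = 0.000434), Pcna (-0.36, adjusted p = 0.000439), Cdk1 (-0.62, adjusted p = 0.000966) and Mki67 (-0.62, adjusted p = 0.00506 in edgeR) passed in all 12 fits that left out 1 library. The part of this difference in the values of the feedback genes was not tested. Of the markers of undifferentiated muscle cells, Pax7 had a log2 fold change of -0.036 (95% interval -0.27 to 0.2, adjusted p = 0.827 in edgeR). Myf5 and Cd34 were lower (-0.42 and -0.75) and Msc was higher (1.05, on 11 to 102 counts per library). Among the myotube markers Myog (-0.29) and Myh8 (-1.25) were lower and Mymk (0.36), the gene of the fusion protein myomaker, was higher, whereas Ckm did not pass (0.27, adjusted p = 0.354). For Myh8, horse serum library 6 had 79.8 CPM and the other 5 had at least 598 CPM. The gene passed in 1 of the 12 fits without 1 library, the fit without horse serum library 6 (-1.48, adjusted p = 1.83e-06 in edgeR). In that fit 7 of 12 myotube markers were called, 6 lower and 1 higher with STEM, against 3 with all libraries. The same fit called 50.8% of all genes tested, against 36.4% with all libraries.

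**Figure D2:**
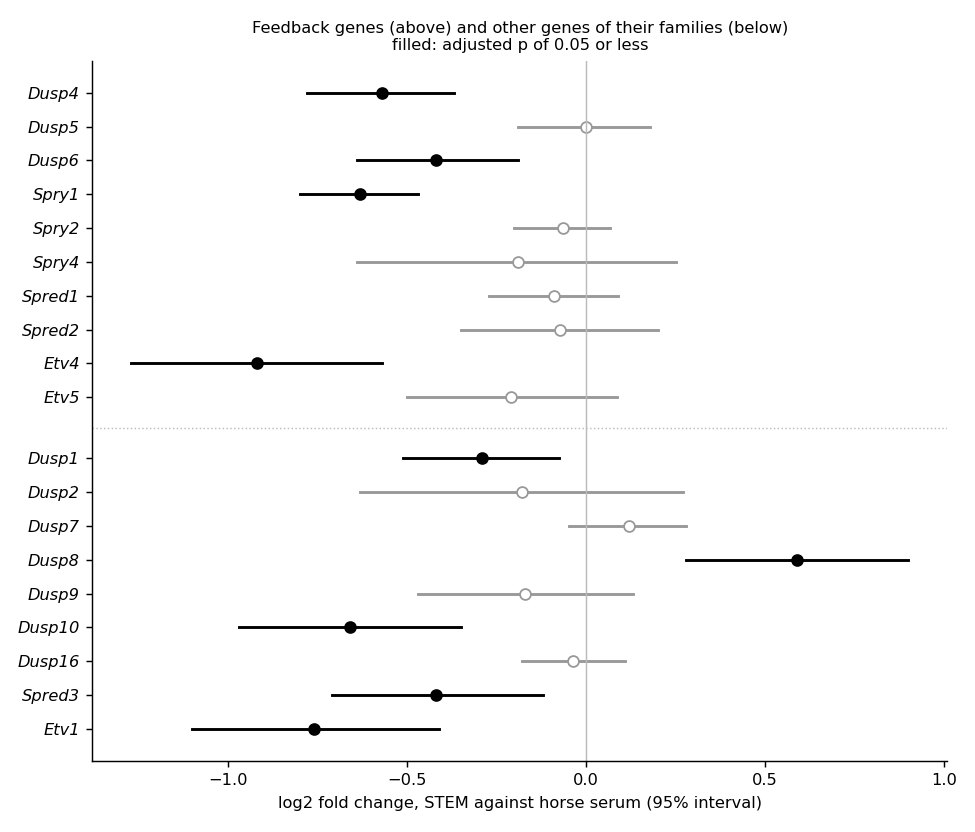
Log2 fold change with STEM against horse serum and its 95% interval for the 10 feedback genes (above the dotted line) and for 9 tested genes of the same families (below). Filled points passed an adjusted p-value of 0.05. In the feedback genes the 4 filled points lie between -0.92 and -0.42, and among the 9 other genes Dusp8 is the filled point above 0.

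In the DUSP, Sprouty and Etv groups some genes passed as lower and others did not, whereas neither Spred gene passed. The difference between related genes was tested directly. In each library the log2 ratio of 2 related genes was formed, which does not depend on the normalization between libraries beyond the small prior count, and the groups were compared by an exact permutation test with adjustment over the 8 pairs. Spry1 fell relative to Spry2. Their log2 ratio was -0.24 ± 0.11 with horse serum and -0.81 ± 0.18 with STEM (SD, n = 6), a difference of -0.57 without overlap (two-sided exact permutation test, adjusted p = 0.00577). The ratio of Dusp4 to Dusp5 fell by 0.56 on the log2 scale, from 1.03 ± 0.16 to 0.47 ± 0.19, likewise without overlap (exact permutation test, adjusted p = 0.00577). The ratio of Etv4 to Etv5 went from -0.5 ± 0.39 to -1.15 ± 0.2, a difference of -0.65 (exact permutation test, adjusted p = 0.00577). In horse serum library 6 this ratio was 0.25, against at most -0.39 in the other 5, and without that library the difference was -0.5 (adjusted p = 0.0115 from the exact permutation test).

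Dusp6 also fell relative to Dusp5, by 0.4 on the log2 scale, with 4 of 6 STEM libraries below all horse serum libraries (two-sided exact permutation test, adjusted p = 0.013). Between the 2 phosphatase genes that were lower, Dusp4 and Dusp6, the difference was -0.17 and did not pass (exact permutation test, adjusted p = 0.124). For Spry1 against Spry4 it was -0.45 (exact permutation test, adjusted p = 0.0693), for Spry4 against Spry2 -0.12 (adjusted p = 0.626) and for Spred1 against Spred2 0.013 (adjusted p = 0.92). In all, 4 of the 8 pairs passed, and the same 4 passed without horse serum library 6. The pairs share genes and were formed after the fold changes had been seen.

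**Figure D3:**
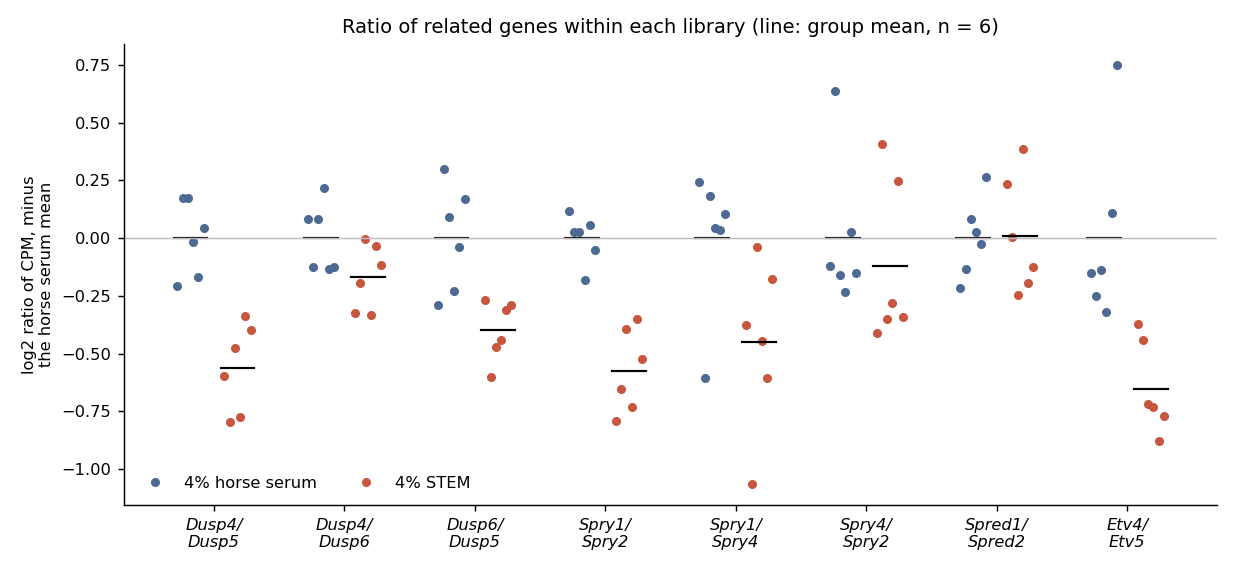
Log2 ratio of CPM of 2 related genes within each library, after subtraction of the mean of the horse serum libraries. Points are libraries and black lines are group means of 6. For Dusp4/Dusp5, Spry1/Spry2 and Etv4/Etv5 all STEM libraries lie below all horse serum libraries.

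The levels of the 10 genes were compared with each other per length, as CPM per kb of exon. With horse serum, Spry2 was the highest at 21.7 ± 1.92 CPM per kb (SD, n = 6), followed by Spry1 (13.2 ± 0.818), Spred1 (9.06 ± 1.22), Dusp6 (7.82 ± 1.42) and Dusp4 (4.72 ± 0.613). Spred2, Dusp5, Etv5 and Etv4 came next, between 2.94 and 2.19 CPM per kb, and the ranges of neighbours overlapped among these 4, as they did for Spred1 and Dusp6. Spry4 was the lowest at 0.294 ± 0.0808 CPM per kb, below the range of every other gene. With STEM, Spry1 and Spred1, both at 8.52 CPM per kb, could no longer be separated, nor could Dusp4 (2.66 to 3.51) and Spred2 (1.8 to 3.34). Etv4 at 1.16 ± 0.196 CPM per kb was now below the range of Etv5 (2.01 ± 0.47), although with the length of the longest transcript their ranges overlapped. By that length Etv4 stood at rank 7 with horse serum and at rank 9 with STEM.

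**Figure D4:**
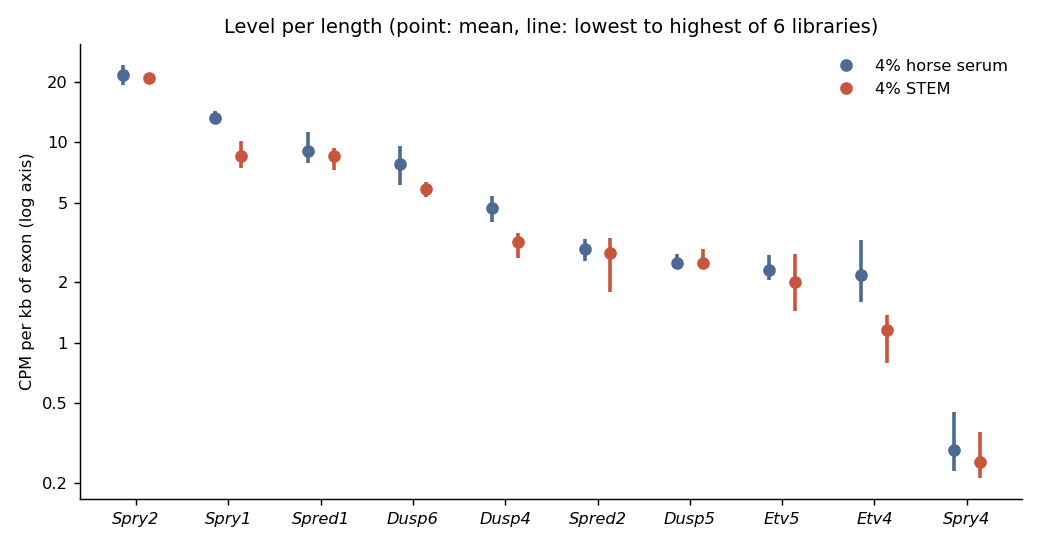
Level per length of the 10 genes in CPM per kb of exon, on a log axis. Points are means and lines run from the lowest to the highest of 6 libraries. With horse serum Spry1 (13.2) lies above Spred1 (9.06), and with STEM both are at 8.52.

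Within the groups, the libraries varied together for some of these genes. After subtraction of the group means, Pearson's r over the 12 libraries had a median of 0.371 over the 45 pairs of genes (-0.342 to 0.86), as a description, since all points share libraries, depth and scaling. Spred1 and Etv4 (0.86) and Spred2 and Etv5 (0.799) were the most alike. Without horse serum library 6 these values were 0.754 and 0.834. Outside the feedback genes, the gene most like Spry1 over the 12 libraries by the same measure was Kctd1 (r = 0.896, Spearman's rho 0.909), and for the other 9 they were Cdc14b for Dusp4 (0.898), Sepsecs for Dusp5 (0.9), Gm7809 for Dusp6 (0.922), Nbl1 for Spry2 (0.934), Snap23 for Spry4 (0.847), Ece1 for Spred1 (0.966), Cmip for Spred2 (0.957), Mmd for Etv4 (0.945) and Kif1a for Etv5 (0.905). Spearman's rho for these 9 ran from 0.657 (Dusp5) to 0.951 (Dusp6). Each gene was picked as the highest r among all other genes tested, which by itself favours high values, and no r was tested.

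Next, the other MAP kinase phosphatase genes and Spry3, Spred3 and Etv1 were examined. Of 10 listed genes 9 were tested, and 4 were lower and 1 was higher with STEM, beside 17.4% and 18.9% of all genes tested. Etv1, the third gene of the PEA3 group, fell from 5.46 ± 1.26 to 3.26 ± 0.549 CPM (SD, n = 6) without overlap between the groups (log2 fold change -0.76, adjusted p = 0.00191 in edgeR). Dusp10, whose product acts on the stress kinases p38 and JNK, went from 53.8 ± 11.3 to 34.0 ± 4.35 CPM (log2 fold change -0.66, adjusted p = 0.00307), and horse serum library 6 had 30.9 CPM against at least 56.8 in the other 5. Dusp1 (-0.29, adjusted p = 0.036) and Spred3 (-0.42, adjusted p = 0.0281) were lower too, but they passed in only 5 and 6 of the 12 fits that left out 1 library. Dusp8, which also acts on stress kinases, was the one that rose, from 5.75 ± 1.2 to 8.64 ± 1.48 CPM (log2 fold change 0.59, adjusted p = 0.00539 in edgeR). Dusp2 (-0.18), Dusp7 (0.12), Dusp9 (-0.17) and Dusp16 (-0.035) did not pass. Dusp7 was at 32.7 CPM in horse serum library 6 and at most 25.3 CPM in the other 5, and without that library it was higher with STEM (log2 fold change 0.2, adjusted p = 0.00365). Spry3 had at most 7 counts per library and was not tested. Leaving out horse serum library 1 or 4 or STEM library 10 or 11 lowered the count of 5 to 3.

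Other genes used as a record of ERK activity were split in direction. Of 12 tested, 4 were lower and 2 were higher with STEM, beside 17.4% and 18.9% of all genes tested. Without horse serum library 6, where 50.8% of all genes tested differed, these counts were 6 and 3. Ccnd1, the gene of cyclin D1, had the largest fall, from 64.5 ± 12.6 to 17.5 ± 1.51 CPM (log2 fold change -1.88, adjusted p = 9.48e-08 in edgeR). The ephrin receptor genes Epha2 (-0.75, adjusted p = 2.02e-07) and Epha4 (-0.72, adjusted p = 4.3e-06) were lower in every STEM library than in any horse serum library. In the opposite direction, the cytokine gene Lif rose from 5.08 ± 1.68 to 13.6 ± 2.28 CPM (log2 fold change 1.4), and Hbegf, which encodes a ligand of the EGF receptor, from 38.2 ± 5.27 to 67.8 ± 9.31 CPM (0.83). Errfi1, a feedback inhibitor of the EGF receptor, was lower by the fit (-0.24, adjusted p = 0.0456) and passed in 4 of the 12 fits without 1 library. Lif, Hbegf and Errfi1 are named after their values were seen.

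The immediate early genes are induced by ERK within minutes, in part through SRF and its partners. Of 11 tested, 5 were higher with STEM, 0 were lower and 6 did not pass, at a median of 0.32 on the log2 scale. Among all genes tested, 18.9% were higher and 17.4% lower. The counts of immediate early genes were the same with DESeq2, with limma-voom and without horse serum library 6. At an unadjusted p-value below 0.05, 0 were lower. Egr1 was at 6.92, 10.3 and 14.5 CPM in the lowest, median and highest horse serum library and at 11.6, 22.6 and 24.1 CPM with STEM. Only STEM library 10 lay within the horse serum range, and the log2 fold change was 0.94 (adjusted p = 0.00243 in edgeR). Egr2 rose by 1.37 (adjusted p = 0.000617), Ier2 by 0.56 (adjusted p = 0.00138) and Jun by 0.48 (adjusted p = 2.81e-05) on the log2 scale, while Fos did not pass (0.3, adjusted p = 0.181). The same cultures thus had lower Spry1, Dusp4, Dusp6 and Etv4 and higher Egr1, Egr2, Jun and Ier2 at 24 hours.

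**Figure D5:**
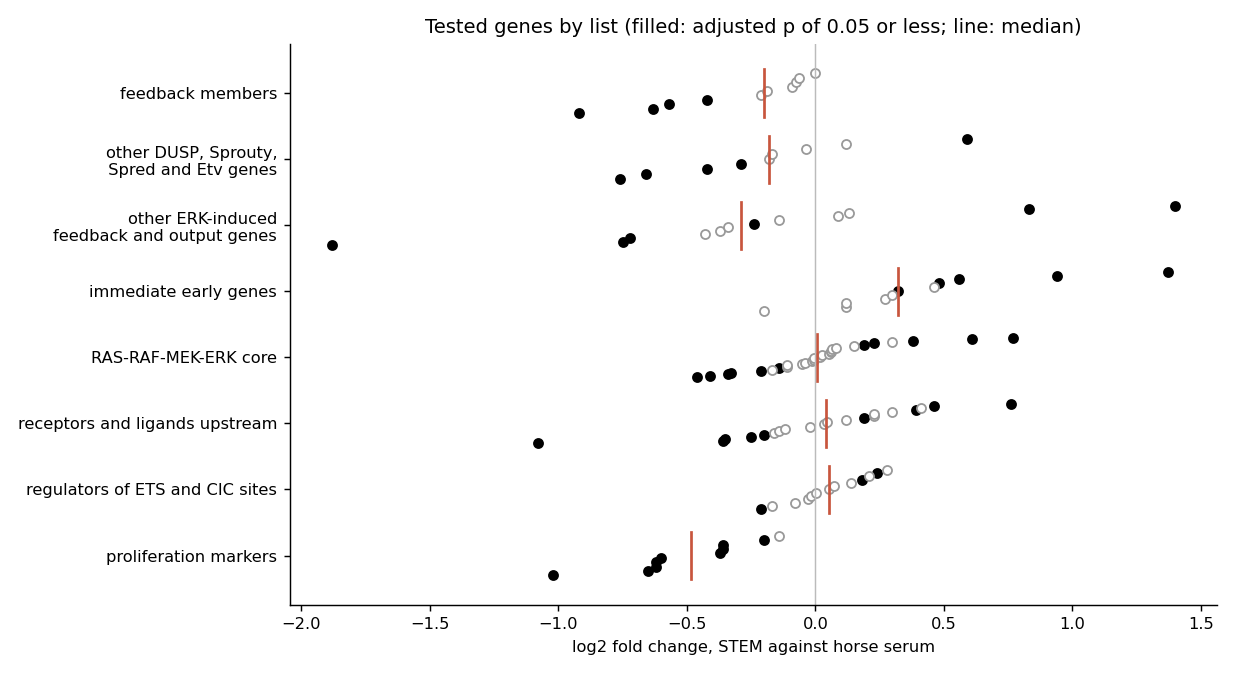
Log2 fold change with STEM against horse serum of every tested gene in 8 lists. Filled points passed an adjusted p-value of 0.05 and lines are medians. The median is -0.2 for the feedback genes, 0.32 for the immediate early genes and 0.0066 for the RAS-RAF-MEK-ERK core.

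The cascade itself was examined at the transcript level. Of 28 genes of the RAS, RAF, MEK and ERK core, 11 differed, 5 higher and 6 lower, with a median log2 fold change of 0.0066. Of all genes tested, 36.4% differed, 18.9% higher and 17.4% lower. Without horse serum library 6, where 50.8% of all genes tested differed, 6 of the 28 were higher and 8 lower. Mapk3, which encodes the kinase ERK1, was lower in every STEM library than in any horse serum library and went from 63.4 ± 3.59 to 50 ± 2.45 CPM (SD, n = 6, log2 fold change -0.34, adjusted p = 0.000105 in edgeR). Of the MEK genes, Map2k2 was higher (0.19, adjusted p = 0.00514) and Map2k1 did not pass (0.081, adjusted p = 0.54), with 131 CPM in horse serum library 6 and at least 196 CPM in the other 5. Hras (0.38, adjusted p = 2.33e-05) and Rps6ka2 (0.77, adjusted p = 1.27e-05), the gene of a kinase downstream of ERK, were higher. These are amounts of mRNA, and the phosphorylation of ERK was not measured here.

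Of 20 tested receptors and ligands upstream of the cascade, 4 were higher and 5 lower with STEM, beside 18.9% and 17.4% of all genes tested. Without horse serum library 6, where 50.8% of all genes tested differed, there were 8 and 5. Hgf, the ligand of the receptor Met, had the lowest p-value, at 37.4, 41.4 and 46.9 CPM in the lowest, median and highest horse serum library and 17.6, 19.1 and 24.4 CPM with STEM (log2 fold change -1.08, adjusted p = 2.33e-07 in edgeR). The FGF receptor genes Fgfr4 (-0.36, adjusted p = 0.000947) and Fgfr1 (-0.25, adjusted p = 0.00994) were lower, and the ligand gene Pdgfc (0.46, adjusted p = 7.69e-06) was higher. Of 13 genes of transcription factors that act at ETS, CIC or SRF sites, or of their partners, 3 differed, beside 36.4% of all genes tested. Without horse serum library 6, the count was 6. Srf rose by 0.24 (adjusted p = 0.00241) and Atxn1l, a partner of CIC, by 0.18 (adjusted p = 0.0418, passing in 2 of the 12 fits without 1 library), and Gabpa fell by 0.21 (adjusted p = 0.00313 in edgeR). Cic itself, the repressor of Etv4, Etv5 and other genes of this kind, averaged 23.4 ± 4.07 CPM in horse serum libraries and 26 ± 7.27 CPM in STEM libraries (SD, n = 6) and did not pass (adjusted p = 0.568 in edgeR).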

How the data were processed

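Ribosomal RNA was removed, and stranded total RNA libraries were sequenced as read pairs. The authors deposited raw read counts per Ensembl gene, without normalization. The submitters' processing notes name STAR 2.7.3a, featureCounts 1.6.3, DESeq2 1.26.0 and the build GRCm38, while the annotation release and the strand setting are not given in the sources used here. Symbols, coordinates and exon lengths were taken from GENCODE M21 (GRCm38), which lacked 260 of 55487 listed genes with 0.00268% of the counts. The 10 genes and all lists were chosen with earlier results of these data known.

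Counts were tested with edgeR 4.0.16 (TMM, filterByExpr, glmQLFit with robust estimation, glmQLFTest) in R 4.3.3, with p-values adjusted by Benjamini-Hochberg over the 14175 genes that passed the filter, and genes were called at 0.05. Intervals (95%) come from the fitted standard errors, and the median of all log2 fold changes moved by at most 0.024 under other settings. The authors used DESeq2, which was run here as an alternative (1.42.0), as was limma-voom (limma 3.58.1). CPM are counts over TMM-scaled totals, and log2 CPM used a prior count of 2. Libraries of a group differed by more than sampling noise (chi-square per degree of freedom of at least 3.29 over pairs). The scripts were tested on simulated counts with known changes. Of 14175 genes, 100 were changed 2-fold and 100 were changed 4-fold. There, 4.43% of the calls were false with edgeR, 3.5% with limma-voom and 11.9% with DESeq2. These rates belong to that setting, in which few genes differed and no library was made to stand apart. They do not give the false share of the calls in the data. The ratios of related genes, their fit without horse serum library 6 and the search for CArG boxes were added after values had been seen.

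The text names all 10 genes and the other MAP kinase phosphatase, Sprouty, Spred and Etv genes of the second list. It also names up to 3 called genes with the lowest p-values in each further list and some genes fixed by name. Genes that overlap the 10 in the annotation and the gene most like each over the libraries are named too. One gene that this rule names is not reported here.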

Additional observations from a re-analysis of the deposited data

Results flagged for a closer look

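For 53 named genes the highest or lowest library of each group was compared with its nearest neighbour, as the gap divided by the range of the 6 values. For independent normal values, Dixon's 95% critical value for 6 values is exceeded in about 1 in 20 cases. The genes here share libraries, so an excess over that rate was not tested. The quotient exceeded the critical value in 14 of 106 cases, and 8 of the 14 were horse serum library 6. Among the feedback genes these were Etv4 in horse serum library 6 (10 CPM, nearest 6.64, quotient 0.669) and in STEM library 10 (2.45 CPM, nearest 3.65, 0.655), Dusp5 in STEM library 8 (7.30 CPM, nearest 6.16, 0.803) and Spry4 in horse serum library 2 (2.16 CPM, nearest 1.38, 0.73). In horse serum library 6, Dusp7 (0.81), Ier2 (0.756) and Rps6ka2 (0.726) were high. In the same library Dusp10 (0.909), Map2k1 (0.816), Ckm (0.725) and Myh8 (0.746) were low. In the STEM group the quotient was 0.705 for Dusp7 in library 12 (low), 0.748 for Hgf in library 12 (high) and 0.719 for Myf5 in library 11 (low).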

How the results depend on the processing

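The 8 other settings were DESeq2's size factors, total counts, upper quartile scaling, a test of all genes with any count, a minimum of 10 counts per library, DESeq2, limma-voom and thinning to the lowest total, and each of the 12 libraries was left out in turn. In all of these fits 4 of the 10 genes were lower and 0 higher. With the 8 settings the log2 fold changes were -0.6 to -0.56 for Dusp4, -0.44 to -0.4 for Dusp6 (adjusted p up to 0.0148), -0.65 to -0.61 for Spry1 and -1 to -0.91 for Etv4. The uncalled value of Dusp5 changed sign with total counts (0.016) and ranged from -0.052 to 0.03 with 1 library left out, and that of Spred2 from -0.13 to 0.024. Leaving out 1 library gave 3 to 6 called genes among the other DUSP, Sprouty, Spred and Etv genes listed and 10 to 14 in the RAS-RAF-MEK-ERK core. It gave 2 to 6 among the regulators of ETS and CIC sites and 2 to 7 among the myotube markers. Among the markers of other cell types it gave 0 or 1, and 1 without the filter (Csf1r). Among the proliferation markers the count was 6 to 9, and 6 with total counts. The count of all called genes ranged from 4459 to 7245 against 5155, highest without horse serum library 6, and the cause was not tested. A prior count of 0.5 changed no call of the exact test. Depth limits Spry4 most. No paired analysis was run, because no source used here records a pairing of libraries between the groups.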
